A study of Homo sapiens with 3 samples.

Results

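From a small RNA count table of 2580 endogenous mature entries, 14 entries of 10 human miRNA hairpins were examined. The hairpins were hsa-mir-1248, hsa-mir-1291, hsa-mir-3607, hsa-mir-3651, hsa-mir-3653, hsa-mir-664a and hsa-mir-664b, which overlap genes of small nucleolar RNAs (snoRNAs), together with hsa-mir-1246, hsa-mir-1268a and hsa-mir-1268b, which resemble pieces of other RNAs. They were picked by name, after the values of several of them in these libraries had been seen, so every difference between libraries below is a description and none was tested. Of the 14 entries, 10 reached a mean of 10 counts across the 3 libraries and 4 did not.

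The cells were Flp-In T-REx 293, made from HEK293, a line of human embryonic kidney origin, and fitted with a tetracycline repressor so that doxycycline switches on the inserted gene. Each group was 1 library: control cells carrying the lentiviral GFP vector with no hairpin, cells carrying the vector with a miR-1 hairpin in an intron, and cells carrying it with a miR-122 hairpin. All 3 lines were selected in Geneticin at 1 mg/mL for 6 days and received doxycycline at 1 ug/mL for 7 days, so the control had the drug and the vector and lacked only the hairpin. Because each line was 1 culture and 1 library, the effect of the hairpin and any difference between cultures or library preparations cannot be told apart.

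A miRNA hairpin is normally cut in the nucleus by Drosha and in the cytoplasm by Dicer, and 1 arm of the resulting duplex is loaded into an Argonaute protein that represses matching mRNAs. snoRNAs follow another route: most lie in introns of protein-coding genes, are trimmed from the spliced intron, and guide chemical modification of ribosomal RNA. Those of the H/ACA class direct pseudouridylation and those of the C/D class direct 2′-O-methylation. Short fragments of snoRNAs are found in small RNA libraries, and some have been entered in miRNA catalogues. Read counts of such entries therefore record any fragment of the right sequence, whether or not it was cut or loaded as a miRNA.

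The mature sequences are shown because they place each entry within the RNA it may come from. RefSeq (build GRCh38.p14) held 10 of the 14; capitals mark the seed, bases 2 to 8, through which a miRNA pairs with its targets. The 4 entries without a sequence were both arms of mir-3607 and of mir-3653.
miR-1248: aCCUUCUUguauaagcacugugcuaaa
miR-1291: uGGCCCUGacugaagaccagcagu
miR-3651: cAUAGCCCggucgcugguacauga
miR-664a-5p: aCUGGCUAgggaaaaugauuggau
miR-664a-3p: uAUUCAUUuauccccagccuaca
miR-664b-5p: uGGGCUAAgggagaugauugggua
miR-664b-3p: uUCAUUUGccucccagccuaca
miR-1246: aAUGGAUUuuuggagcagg
miR-1268a: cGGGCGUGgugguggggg
miR-1268b: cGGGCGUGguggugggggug
Among these, miR-1268a and miR-1268b alone shared a seed; miR-1268a, at 18 nt, is identical to the first 18 of the 20 bases of miR-1268b. The 3p arms of mir-664a and mir-664b shared a run of 11 bases at their 3′ ends, but the seeds lay in different registers. With entries outside the group, the seed of miR-664b-3p was shared by miR-579-3p, which also passed the mean of 10 counts, whereas those of miR-1291 and miR-664a-5p were shared only by miR-6775-3p and miR-4794, which did not. Lengths ran from 18 nt to the 27 nt of miR-1248, and G or C made up 10 of the 27 bases of miR-1248 but 15 of the 18 of miR-1268a.

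All 7 sequenced entries of the snoRNA hairpins were exact parts of an annotated H/ACA snoRNA, as their choice implied. Where they lay in it was not part of that choice. miR-1248 was bases 1 to 27 of the 178 bases of SNORA81, and miR-1291 was bases 2 to 25 of the 137 bases of SNORA34. At the opposite end, miR-3651 was bases 110 to 133 of the 133 bases of SNORA84. Thus miR-1248, miR-1291 and miR-3651 each began or ended within 1 base of a terminus of their snoRNA. The arms of mir-664a lay further in, toward the 3′ end of SNORA36B, at bases 68 to 91 and 106 to 128 of 131. Those of mir-664b held nearly the same places in SNORA36A, at bases 69 to 92 and 108 to 129 of 132. Both 3p arms stopped 3 bases short of the snoRNA end and so closed on the trinucleotide ACA, the box that gives this class its name. Among all 399 SNORA transcripts in the annotation, 60.4% carried ACA at that distance from the 3′ end.

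**Figure D1:**
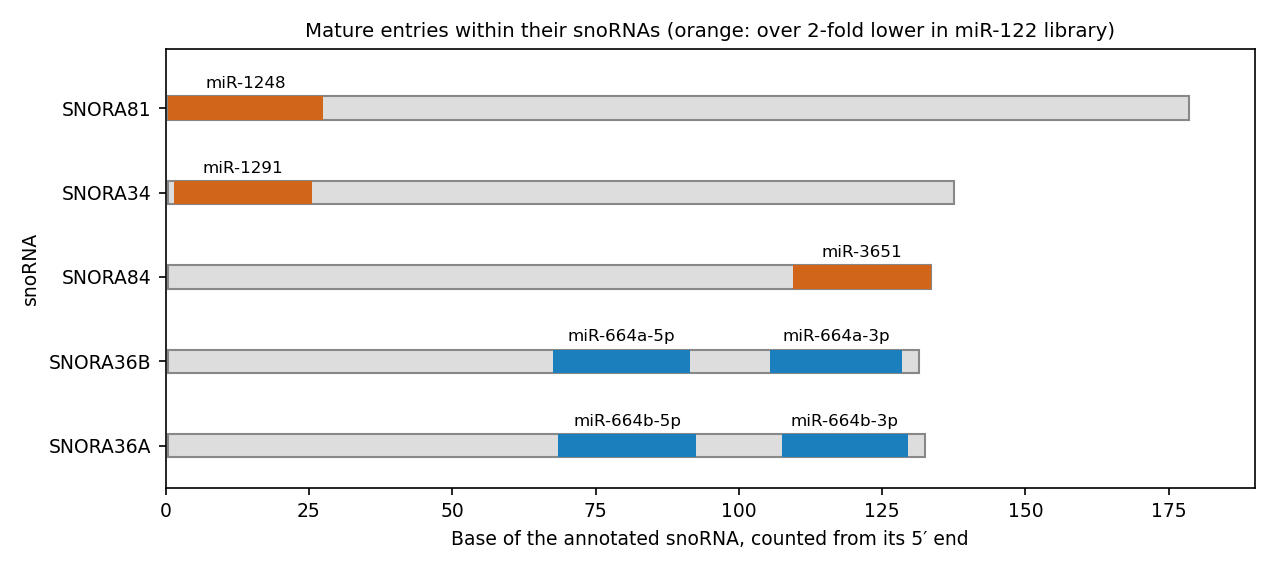
Positions of 7 mature entries (coloured blocks) within 5 H/ACA snoRNAs (grey bars), in bases from the snoRNA 5′ end. Orange marks entries over 2-fold lower in the miR-122 library than in control (miR-1248, miR-1291 and miR-3651), and blue the arms of mir-664a and mir-664b. miR-1248, miR-1291 and miR-3651 touch or nearly touch a terminus. The arms of mir-664a and mir-664b lie within the 3′ part, 3 bases or more from the end. Blue does not mark a resolved lack of difference: miR-664b-3p was unresolved and miR-664b-5p was too sparse for a ratio. miR-3607-3p, also lower in miR-122, had no sequence and is not placed. A link between place and level was not tested.

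Of the 7 snoRNA hairpins, 6 were located, and these lay within protein-coding host genes, on the same strand (positions are GRCh37). MIR1248 was on chromosome 3 at 186504461 to 186504566 in EIF4A2, an RNA helicase of translation initiation. MIR3651 was on chromosome 9 at 95054740 to 95054829 in an intron of IARS1, the isoleucyl-tRNA synthetase. MIR664B was on chromosome X at 153996871 to 153996931 in DKC1, which encodes dyskerin, the pseudouridine synthase of H/ACA particles. MIR664A was on chromosome 1 at 220373880 to 220373961 in an intron of RAB3GAP2, and MIR1291 on chromosome 12 at 49048227 to 49048313 in an intron of KANSL2, a subunit of a histone acetyltransferase complex. MIR3607, classed as a snoRNA in the annotation, was on chromosome 5 at 85916323 to 85916385 in COX7C, a subunit of cytochrome c oxidase. For EIF4A2, DKC1 and COX7C the hairpin overlapped an exon of at least 1 annotated transcript.

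The remaining entries matched repeated sequence. MIR1246 lay on chromosome 2 at 177465708 to 177465780, opposite in strand to an intron of the long non-coding RNA LINC01117. The 19 bases of miR-1246 occurred 7 times in GRCh37: once in this hairpin and 6 times in pseudogenes of U2, the small nuclear RNA that recognizes the intron branch point. In the U2 gene RNU2-2P, 15 of the 19 bases matched without gaps. The U2 gene RNU2-1 was absent from the annotation used and was not compared, so a full match there was not checked. MIR1268A lay on chromosome 15 at 22513229 to 22513280, outside other annotated genes. Its mature sequence occurred 33 times in GRCh37 and that of miR-1268b 4 times, so reads of either could come from several loci. The best match of miR-1268a among 847 annotated 7SL RNAs and their pseudogenes, relatives of the Alu repeats, was 17 of 18 bases. None of the 847 matched exactly, the median match was 11 bases, and the 7SL gene RN7SL2 matched at 14 of 18. In contrast, miR-1248, miR-1291, miR-3651, both arms of mir-664a and miR-664b-5p each had 1 exact copy in GRCh37, and miR-664b-3p had 2, the second of which lay in SNORA36C.

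The libraries held 1636834 to 2892684 counts, of which 1636481 to 1947669 belonged to endogenous entries. The induced miRNAs checked the labels: miR-1-3p had 1100840 counts in its own library and at most 369 elsewhere, and miR-122-5p had 627576 against 10. miR-3591-5p, counted here as endogenous, had 1756 counts in the miR-122 library and at most 1 elsewhere, or 0.0902% of the endogenous counts of that library. Entries of other cell types were at or near 0 (miR-223-3p and miR-208b-3p at 0, miR-142-5p at 1 to 3, miR-451a at 1 to 10), while miR-192-5p, found in kidney and gut, had 3634 to 4508 counts. Levels below are scaled CPM, the counts per 1000000 of a library size set by the endogenous miRNAs (TMM scaling), in which 1 count of the control library is 0.594, and intervals are 95% intervals for counting error only.

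Together the 14 entries made up 0.0425% of endogenous counts in the control library (Wilson interval 0.0395% to 0.0458%), 0.0539% in miR-1 and 0.0482% in miR-122. Within this total the parts differed. The 11 entries of snoRNA hairpins had 492, 482 and 238 counts in control, miR-1 and miR-122, a share of 0.0301%, 0.0269% and 0.0122%. The entries miR-1246, miR-1268a and miR-1268b had 204, 483 and 700 counts, a share of 0.0125%, 0.0270% and 0.0359%. The snoRNA share was therefore lowest in the miR-122 library, where the share of the other entries was highest.

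**Figure D2:**
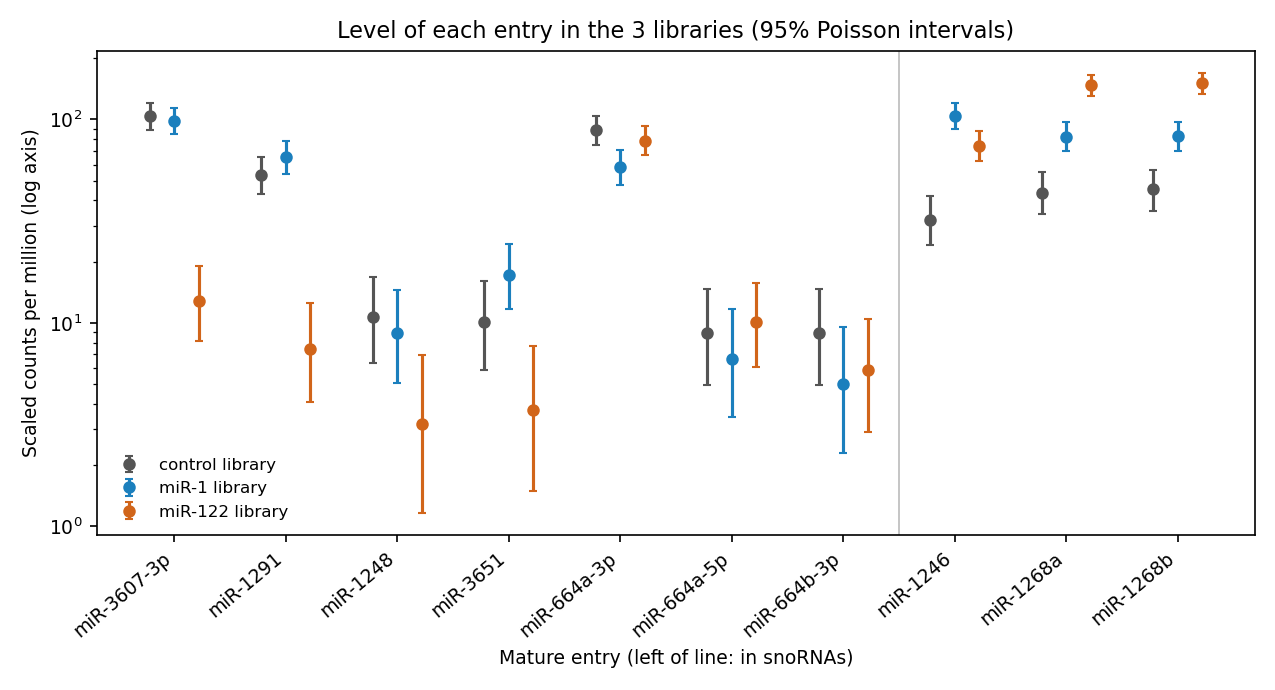
Scaled CPM (log axis) of the 10 entries with a mean count of at least 10, 1 point per library with its 95% Poisson interval. The miR-122 points of miR-3607-3p and miR-1291 sit far below the other libraries (12.8 and 7.44 scaled CPM), whereas those of miR-1268a and miR-1268b sit above them (147 and 151).

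In the control library miR-3607-3p was the most abundant of the 14 entries at 104 scaled CPM, rank 220 among endogenous entries. It was followed by miR-664a-3p at 88.4, with overlapping counting intervals. Next came miR-1291 at 53.4, miR-1268b at 45.4, miR-1268a at 43.6 and miR-1246 at 32.1, where each interval overlapped that of its neighbour. The intervals of miR-1291 and miR-1246 did not overlap each other. All other entries were at or below 10.7. In the miR-1 library miR-1246 at 104 and miR-3607-3p at 98.5 were the highest single entries, again with overlapping intervals. miR-1268a and miR-1268b share reads, and their summed level was 89.0 in control, close to miR-664a-3p, and 165 in miR-1, above both of those entries. In the miR-122 library miR-1268b and miR-1268a led at 151 and 147, apart from miR-664a-3p at 78.7, and miR-3607-3p was in the fifth place at 12.8. These are levels of reads, whose ligation efficiency differs between sequences.

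miR-3607-3p, whose hairpin is itself the C/D snoRNA SNORD138, had 175 counts in control, 177 in miR-1 and 24 in miR-122. Raw counts of the control and miR-1 libraries were alike and the miR-122 library stood alone, though fewer cells with the fragment and less of it per cell cannot be told apart in bulk RNA. Its level in miR-122 was 8.14-fold lower than in control (interval 5.30 to 13.0) and in miR-1 was 0.948 of control (0.765 to 1.17). Scaling by all counts, induced miRNAs included, put its log2 ratio of miR-1 to control at -0.80 in place of -0.08, so that those libraries were level only under scaling by endogenous miRNAs. Among the 514 endogenous entries with a mean count of at least 10, its ratio of miR-122 to control was the lowest. The 5p arm had 0, 1 and 0 counts, so that 3p took 99.7% of the 377 reads of both arms over the libraries (Wilson interval 98.5% to 99.95%). A count of 0 allows up to 3 counts, or 1.78 scaled CPM in control and 1.59 in miR-122.

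miR-1291, the 5′ end of SNORA34, had 90 counts in control, 117 in miR-1 and 14 in miR-122. Like miR-3607-3p, it was low in miR-122. The level in miR-122 was 7.18-fold lower than in control (interval 4.06 to 13.7), the second lowest ratio of the 514. Between the induced lines it was 8.75-fold higher in miR-1 (5.01 to 16.5), the highest ratio of that comparison. That ratio reuses the 14 counts of the miR-122 library. Against control, miR-1 was at 1.22-fold, with an interval of 0.918 to 1.62 that included 1, and the log2 ratio changed from 0.28 to -0.44 when libraries were scaled by all counts, induced miRNAs included.

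miR-1248, the 5′ end of SNORA81, had 18 counts in control, 16 in miR-1 and 6 in miR-122. At these counts the interval is wide: 3.35-fold lower in miR-122 than in control, with an interval from 1.27 to 10.3. miR-3651, the 3′ end of SNORA84, had 17, 31 and 7 counts. It was 2.71-fold lower in miR-122 than in control, an interval of 1.07 to 7.73 that barely cleared 1, and with a pseudocount of 5 its log2 ratio of -0.98 was under the 2-fold limit. In miR-1 it stood at 1.71-fold of control (0.917 to 3.29), which was not resolved from 1 at this depth. Both entries were lowest in the miR-122 library, as were the deeper counts of miR-3607-3p and miR-1291.

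The mir-3653 hairpin, in the C/D snoRNA SNORD125, was too sparse for ratios. Its 3p arm had 9 counts in control, 12 in miR-1 and 3 in miR-122, and its 5p arm 2 in each. The 3p counts had the same order as those of miR-1291, but their Poisson intervals overlapped.

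Of the mir-664 entries, miR-664a-3p did not follow that pattern, and the others had too few counts to tell. miR-664a-3p, the ACA-closing arm of SNORA36B, had 149 counts in control, 105 in miR-1 and 148 in miR-122. Control and miR-122 were alike in raw counts, and after scaling miR-122 was at 0.890 of control (interval 0.704 to 1.12). The level in miR-1 was 1.51-fold lower than in control (1.17 to 1.96), and its log2 ratio of -0.60 became -1.32, past 2-fold, when scaled by all counts. Its 5p arm had 15, 12 and 19 counts, and every ratio between libraries had an interval that included 1; the log2 ratio of miR-122 to control, 0.18, became -0.31 when scaled by all counts. miR-664b-3p, from SNORA36A, had 15, 9 and 11 counts, also unresolved, and miR-664b-5p had 2, 0 and 4. Scaled by all counts, miR-664a-5p and miR-664b-3p were also past 2-fold in miR-1 against control, at log2 ratios of -1.10 and -1.50.

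Both arms of mir-664a were read in every library. The 3p arm took 90.9% of its reads in control (Wilson interval 85.5% to 94.4%, 164 reads), 89.7% in miR-1 (82.9% to 94.0%, 117 reads) and 88.6% in miR-122 (82.9% to 92.6%, 167 reads). The intervals overlapped throughout. Over the 3 libraries the 3p arm of mir-664b took 85.4% of 41 reads (71.6% to 93.1%) and that of mir-3653 took 80.0% of 30 reads (62.7% to 90.5%). The catalogue lists a single mature entry for mir-1248, mir-1291, mir-3651, mir-1246, mir-1268a and mir-1268b, so no arm share can be given for them.

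miR-1246 had 54 counts in control, 187 in miR-1 and 140 in miR-122. Both induced lines were above the control, with the miR-1 library highest. The level was 3.25-fold higher in miR-1 than in control (interval 2.39 to 4.48) and 2.32-fold higher in miR-122 (1.68 to 3.24). Of 514 entries it ranked 2 from the top for miR-1 against control and 14 for miR-122 against control. Scaling by all counts, induced miRNAs included, lowered the median entry by 0.72 on the log2 scale in miR-1 and put miR-1246 there at a log2 ratio of 0.97, under 2-fold, in place of 1.69. In miR-122 the same scaling put it at 0.72 in place of 1.21, also under 2-fold.

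miR-1268a had 73.5, 147.5 and 276.5 counts in control, miR-1 and miR-122, and miR-1268b had 76.5, 148.5 and 283.5. The fractions arise because a read that fits both hairpins was divided between them, so the entries are not separate measurements. Their sum is the better unit: 150 counts in control, 296 in miR-1 and 560 in miR-122. The libraries were in steps, with control lowest and miR-122 highest. The summed level was 1.85-fold higher in miR-1 than in control (interval 1.51 to 2.27) and 3.34-fold higher in miR-122 (2.79 to 4.03). Scaled by all counts, the log2 ratio of miR-1 to control went from 0.91 to 0.18 for miR-1268a and from 0.86 to 0.13 for miR-1268b, so the step from control to miR-1 depended on the scaling. Between the lines, miR-122 was 1.81-fold above miR-1 (1.57 to 2.09).

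**Figure D3:**
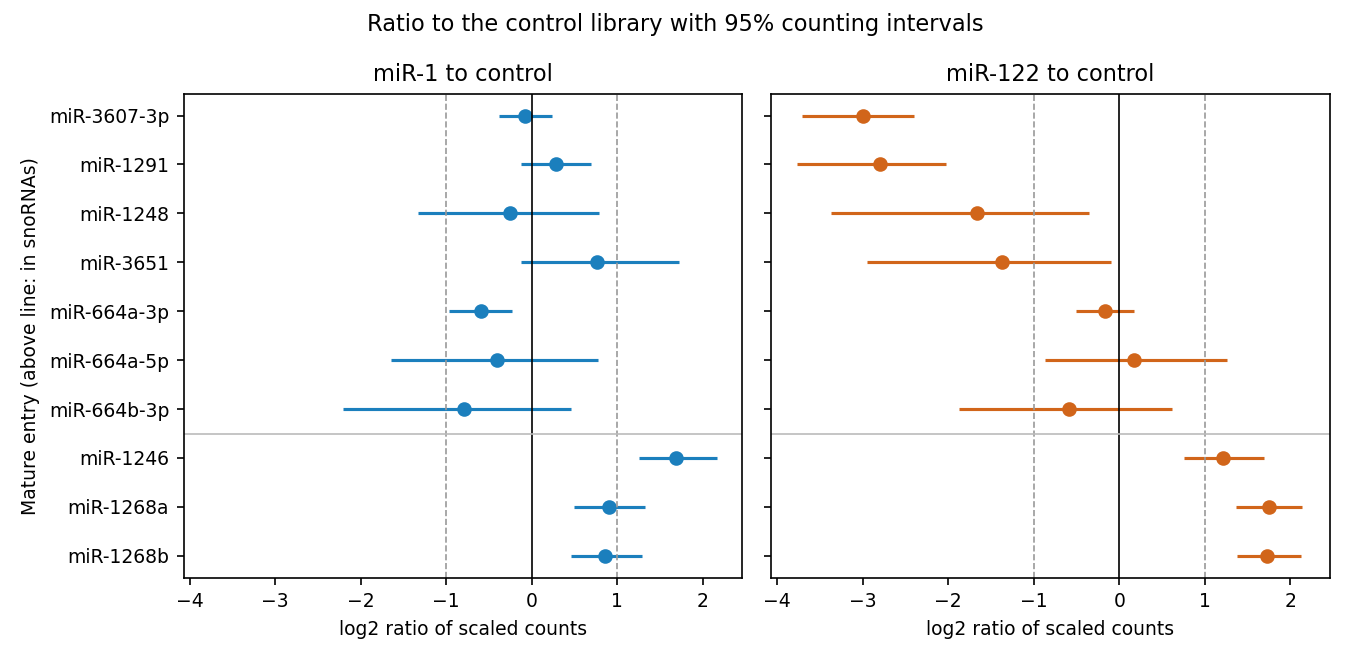
Log2 ratio of scaled counts to the control library for 10 entries (points) with 95% counting intervals (bars), in the miR-1 library (left) and the miR-122 library (right); dashed lines mark 2-fold. In miR-122, 4 of the 7 entries in snoRNAs lie beyond the lower line and miR-1246, miR-1268a and miR-1268b beyond the upper one.

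Counts of entries past 2-fold were then read against all 514 endogenous entries, though these are the values known when the entries were chosen and nothing is read from the shares. In miR-1 to control, 1 of 10 was at least 2-fold higher (miR-1246) and 0 of 10 at least 2-fold lower, where 2.14% and 1.17% of all entries were. In miR-122 to control, 3 of 10 were higher and 4 of 10 lower, where 3.5% and 6.42% of all entries were. In miR-1 to miR-122, 4 of 10 were higher in miR-1 (miR-1248, miR-1291, miR-3607-3p and miR-3651) and 0 lower, where 5.45% and 3.11% of all entries were. The 3 higher entries hold 2 that share reads. For the 7 entries in snoRNAs the median log2 ratio to control was -0.26 for miR-1 and -1.37 for miR-122, with 5 and 6 of 7 below 0. Of all 514 entries, 258 and 274 were below 0, and the medians were 0.00 and -0.03. Of the 5 below 0 in miR-1, only miR-664a-3p had a counting interval that excluded 0. The comparisons with control share the control library, so a value particular to that library enters both. In miR-1 to miR-122, which does not use it, miR-3607-3p was 7.72-fold higher in miR-1 (interval 5.02 to 12.4). That comparison shares the miR-122 library with miR-122 to control. The 24 counts of miR-3607-3p there enter both ratios, which are not separate results.

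**Figure D4:**
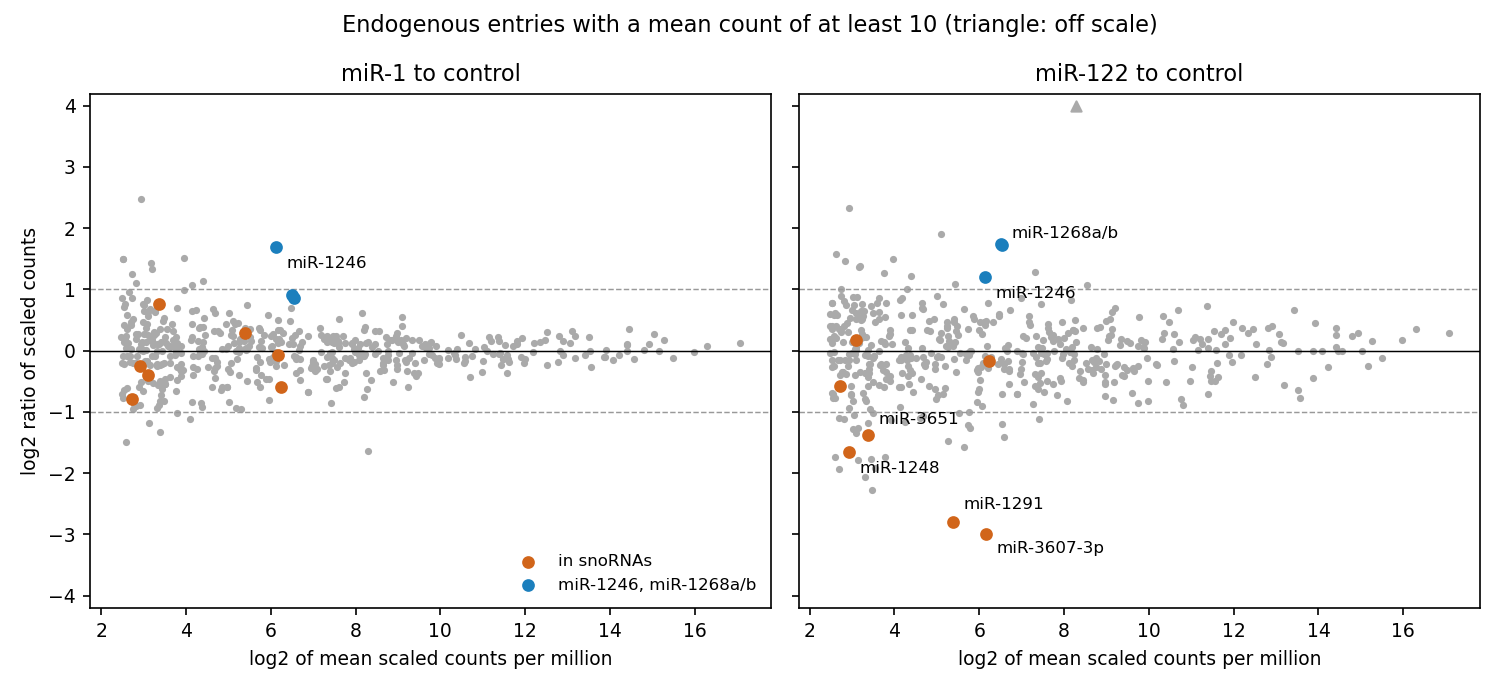
Log2 ratio to control against log2 mean scaled CPM for 514 endogenous entries (grey), with the entries in snoRNAs in orange and miR-1246 and miR-1268a/b in blue; a triangle marks 1 entry off scale. In miR-122 to control (right), miR-3607-3p and miR-1291 lie below all grey points.

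Entries that resemble fragments of other abundant RNAs were set beside these. Of a list of 12 hairpins similar to tRNA, rRNA or mitochondrial RNA, 11 were in the table, with 12 mature entries, of which 5 had a mean count of at least 10. None of the 5 was 2-fold or more from control in either line. miR-1260b, a tRNA-like entry, had 730, 778 and 831 counts across control, miR-1 and miR-122, and miR-4454, also tRNA-like, had 156, 208 and 185. miR-3687, which lies in the ribosomal RNA precursor, had 16, 18 and 33. miR-4485-3p had 11, 13 and 7 counts and miR-7641 had 9, 16 and 6, both lowest in miR-122 as the entries in SNORA81, SNORA84 and SNORA34 were, at log2 ratios to control of -0.77 and -0.70. Between the induced lines miR-7641 was past 2-fold, at a log2 ratio of miR-1 to miR-122 of 1.40. The median log2 ratio of the 5 against control was 0.14 for miR-1 and 0.03 for miR-122. Of the hairpins in the table with a RefSeq position, 1501 in all, 5 overlapped a RefSeq snoRNA gene, and all 5 were among those described. Likewise, of 452 entries that passed the count minimum and had a RefSeq sequence, 6 were exact parts of a snoRNA, and all 6 were among the 14. Neither check found mir-3607 or mir-3653, which are described above as snoRNA hairpins, so other snoRNA entries can have been missed.

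The non-members nearest in pattern were sought among 258 entries with a mean count of at least 100, by the distance in the pair of log2 ratios to control, a measure over only 3 libraries. For miR-664a-3p the nearest was miR-181d-5p, at a distance of 0.0603, with 1211, 855 and 1154 counts in the order used above. For miR-3607-3p the nearest, miR-210-3p, was at 1.59, with 213, 206 and 89 counts, and the next, miR-33a-5p, was at 1.81. For miR-1246 the nearest was miR-7706 at 1.13, with log2 ratios of 0.62 and 0.83, and for both miR-1268 entries it was miR-4473, at 0.812 and 0.761, with 175, 221 and 475. Few entries had ratios far from 0, so these distances largely restate the ratios given above and are no further result. The distance of miR-664a-3p was the smallest of these 5 entries, and none of the 258 lay within 1 log2 unit of miR-3607-3p or miR-1246. With the minimum lowered to a mean of 10 counts, a choice made after seeing the data, 1 of 504 entries did so for miR-3607-3p and 12 for miR-1246. The nearest were then miR-3609 at 0.942, with 24, 22 and 6 counts, and miR-193b-5p at 0.303, with 7, 21 and 21.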

How the data were processed

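Small RNA libraries were prepared by the authors from 1000 ng of total RNA per culture. Adapters were trimmed, reads under 18 nt dropped, identical reads collapsed with their multiplicity, and reads aligned with miRDeep2 to human hairpins of miRBase release 21 plus synthetic hairpins. What the authors deposited are estimated counts, 1 row per mature entry and hairpin, where a read that fits several hairpins is divided among them; no genome entered that step. The authors also deposited RPM values, which differed from count over library total by at most 0.00652 and were not used, and pooled totals, which were not used.

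Counts were summed by mature name. Endogenous entries with a mean count of at least 10 (514 of 1351 with any count) set TMM library sizes (edgeR 4.0.16, R 4.3.3). Log2 ratios used a pseudocount of 0.5 scaled counts; folds and their intervals used none. Ratio intervals were Clopper-Pearson on rounded counts with the scaling held fixed, and level intervals exact Poisson; both cover counting error only, since reads carried no molecular identifiers. With 1 library per group no test was possible and no p-value is given. Ratios were checked on simulated data. Sequences came from RefSeq and were matched exactly to GRCh37 and GENCODE release 44 (lifted to GRCh37). Every listed entry was named. The members and lists were chosen with earlier results of these data known. Alternatives covered scaling, count filter, pseudocount, fold limit and the combining of hairpins.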

Additional observations from a re-analysis of the deposited data

Results flagged for a closer look

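Entries whose ratios to control had opposite signs in the miR-1 library and the miR-122 library drew attention; with 1 library each, the difference was not tested. miR-1291 had a log2 ratio of 0.28 in miR-1 (interval -0.12 to 0.70) and -2.80 in miR-122. miR-3651 had 0.76 (-0.12 to 1.72) and -1.37. The miR-1 intervals of both entries included 0, so opposite signs were not resolved for either. Scaled by all counts, the ratio of miR-1291 in miR-1 was -0.44. miR-664a-5p had -0.40 and 0.18, with counting intervals that included 0 in both.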

How the results depend on the processing

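No paired analysis was possible because there was 1 library per line, and for the same reason no library could be left out. The number of entries at least 2-fold apart was 1 for miR-1 against control, 7 for miR-122 against control and 4 between the induced lines, and is given in that order. Without a filter on low counts it was 3, 8 and 7 of 14 entries; a minimum mean of 100 counts gave 1, 4 and 1 of 5, since fewer entries remained. A 1.5-fold limit gave 6, 7 and 6. Scaling by all counts, induced miRNAs included, gave 3, 7 and 6, with 0 higher and 3 lower in the first; that scaling moved the median of all endogenous entries to -0.72 for miR-1 and -0.53 for miR-122 against control. The other scalings, the pseudocount of 5 and the highest hairpin kept each count within 1.5 times. The share of all endogenous entries past the limit was taken only at the main settings. The counts at other settings therefore have no share beside them, and nothing is read from them. Of 225 alternative log2 ratios of single entries, 215 stayed within the counting interval and 10 moved beyond it. All 10 were under scaling by all counts. The other settings shifted the median of all entries far less, so the 215 say little about stability. None of the ratios past 2-fold changed sign. With a pseudocount of 5, the log2 ratio of miR-3651 for miR-122 against control was -0.98, and that of miR-1248 between the induced lines 0.97. Arm shares were the same from the hairpin rows, which could not move them. Entries under about 20 counts limit what can be resolved.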
